A study of Mus musculus with 9 samples.

Results

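The microRNA miR-21a (mmu-miR-21a) was described across small extracellular vesicle (smEV) libraries of ciliated kidney cells, as 1 of the 1164 entries of the deposited miRNA count table. It was chosen by its count, which exceeded that of every other miRNA in these libraries, and by its higher share of the counts in both mutants, so its levels are given as a description and were not tested. The cells were kidney medullary (KM) cells, an immortalised culture from the mouse kidney medulla, incubated without serum for 24 h before smEV pellets were prepared from their supernatant by differential centrifugation. Libraries came from Bbs4-/- cells (n = 3), Bbs6-/- cells (n = 3) and wild-type control (WT) cells (n = 3). Each genotype was represented by 1 cell line derived from mice of that genotype, so genotype and cell line cannot be told apart. Bbs4 is a subunit of the BBSome, a complex that moves membrane proteins in and out of the primary cilium, and Bbs6 is a chaperonin-like protein needed for its assembly.

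A miRNA is a short RNA that guides an Argonaute protein to target transcripts, mainly through pairing of its seed, the bases just after the 5′ end. miR-21 is among the most abundant miRNAs of many cultured and transformed cells, and Pdcd4 is among its known targets. In the kidney it is known for its rise during injury and fibrosis, and it is found in extracellular vesicles of many cell types.

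The sequences are shown because they decide which reads can be told from those of a related miRNA. The Mir21a hairpin lies at chr11:86584067-86584158 on the minus strand (GRCm38), inside the annotated UTR in exon 12 of Vmp1 and on the same strand as that gene. The deposited entry names no arm of the hairpin, so both mature forms are given, with RefSeq positions in GRCm38.p6 of chr11:86584120-86584141 for the 5p arm and chr11:86584082-86584103 for the 3p arm. The paralogue miR-21b lies at chr3:29636768-29636790 (plus strand) and miR-21c at chr8:128278188-128278208 (minus strand). The next most abundant miRNAs, let-7f, miR-182 and miR-10a, follow for comparison. The seed, bases 2 to 8, is in capitals.
miR-21a-5p: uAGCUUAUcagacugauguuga
miR-21a-3p: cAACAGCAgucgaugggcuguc
miR-21b: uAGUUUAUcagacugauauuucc
miR-21c: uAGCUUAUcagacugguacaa
let-7f-5p: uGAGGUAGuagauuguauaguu
miR-182-5p: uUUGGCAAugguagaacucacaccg
miR-10a-5p: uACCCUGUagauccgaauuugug

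With positions counted from the 5′ end of miR-21a-5p, miR-21b carries C4U, G18A, G21U and A22C, the first of them inside the seed. miR-21c keeps the seed and carries A16G, G18A, U19C, U20A and G21A. Of the 1164 entries, 1026 had a mature sequence in the RefSeq table, and 2 of these, miR-21a and miR-21c, held the miR-21a-5p seed. Both paralogues had 0 counts in all 9 libraries, which allows each a share of at most 0.000656% in the deepest library and 0.00468% in the shallowest. The miR-21 reads were therefore listed under 1 entry, and no second entry with the same seed added to them.

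Libraries are named by the numbers in the deposited table. The total count was 176935, 213161 and 457163 in Bbs4-/- libraries 1, 2 and 3, and 192654, 321727 and 423784 in Bbs6-/- libraries 2, 3 and 4. It was 64118, 106217 and 130905 in WT libraries 1, 3 and 4, and no WT library reached the depth of a mutant library. Entries of the epithelial miR-200 family (miR-200a, miR-200b, miR-200c, miR-141 and miR-429), fixed as markers, were all detected and summed to 1.28% to 1.41% of the counts in WT, 1.52% to 1.86% in Bbs4-/- and 1.57% to 1.83% in Bbs6-/-. Markers of blood cells summed to 0.0122% to 0.0218% in WT, 0.00569% to 0.0113% in Bbs4-/- and 0.00311% to 0.00675% in Bbs6-/-. The WT sums were the highest, but no blood marker passed the test used below in either mutant. Of the smooth muscle and fibroblast markers, miR-145a had no count. The other, miR-143, held 0.00565% to 0.0172% in WT, 0.0112% to 0.0267% in Bbs4-/- and 0.00165% to 0.00591% in Bbs6-/-. The kidney epithelial markers miR-192 and miR-194 together reached at most 0.0289%. The endothelial miR-126a reached at most 0.016%, the liver marker miR-122 0.0109% and the neuronal miR-124 0.000938%, while striated muscle markers summed to 0.101% to 0.224%. Among the epithelial markers, miR-200c and miR-141 were the 2 that passed the test used below, both higher in each mutant. Their log2 fold changes were 7.97 and 7.35 in Bbs4-/- and 7.89 and 7.69 in Bbs6-/-. The WT sum thus came almost wholly from miR-200a, miR-200b and miR-429. The liver marker miR-122 was called lower in Bbs4-/- (log2 fold change -4.16, adjusted p = 0.0586, edgeR). It held 0.00282% to 0.0109% of the counts in WT and at most 0.000938% in Bbs4-/-, so this call rests on very few counts.

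In WT smEVs, miR-21a had 7251, 12739 and 15007 counts, which were 11.3%, 12.0% and 11.5% of the library. In Bbs4-/- smEVs it had 30263, 42947 and 83297 counts, or 17.1%, 20.1% and 18.2%. In Bbs6-/- smEVs it had 44037, 60686 and 75895 counts, or 22.9%, 18.9% and 17.9%. Every mutant library thus held a larger share of miR-21a than every WT library. The exact 95% binomial intervals (Clopper-Pearson), which cover counting error only, ran from 11.1% to 11.6% in the shallowest WT library and from 18.1% to 18.3% in the deepest Bbs4-/- library, so the spread between libraries of a mutant was wider than counting error. Within Bbs6-/- the share was lower in each deeper library, while in Bbs4-/- it was highest in the library of middle depth and in WT likewise. Over the genotypes, depth and miR-21a share moved together, and their parts cannot be told apart.

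The mean share was 11.6% ± 0.359 (SD, n = 3) in WT, 18.5% ± 1.54 (SD, n = 3) in Bbs4-/- and 19.9% ± 2.63 (SD, n = 3) in Bbs6-/-. The ranges of the mutants overlapped, so by share of the counts Bbs4-/- and Bbs6-/- did not differ beyond their spread. A share says nothing of the number of miR-21a molecules per vesicle or per cell, since less of the other RNAs and more miR-21a give the same share.

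**Figure D1:**
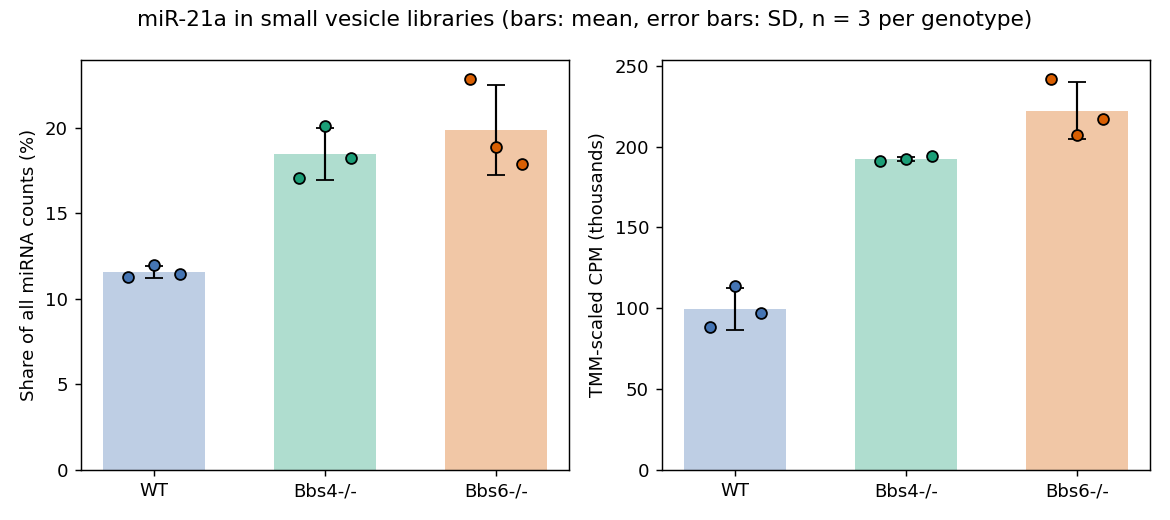
Share of all miRNA counts in percent (left) and TMM-scaled CPM (right) of miR-21a, by genotype. Points are libraries, bars the mean and error bars the SD (n = 3 per genotype). The WT libraries sit at 11.3% to 12.0% and all mutant libraries at 17.1% or more.

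miR-21a was the most abundant entry in all 9 libraries, but what came second differed by genotype. In the 3 WT libraries the second was miR-182, a miRNA from a cluster with miR-183 and miR-96 that is known from sensory cells. In all 3 Bbs4-/- libraries and in Bbs6-/- libraries 3 and 4 it was let-7f, a member of the let-7 family of differentiation-associated miRNAs, and in Bbs6-/- library 2 it was miR-10a, encoded in a Hox cluster. miR-21a had 1.45 ± 0.136 (SD, n = 3) times the counts of the second miRNA in WT, 2.58 ± 0.603 in Bbs4-/- and 2.49 ± 0.562 in Bbs6-/- (SD, n = 3 each). The lowest mutant value was 2.02 and the highest WT value 1.55.

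As a single entry miR-21a led every library, but the summed counts of the entries with the let-7 seed exceeded it. The 11 entries with the let-7 seed, summed after their values had been seen, took 23.8% ± 1.39 (SD, n = 3) of the counts in WT, 27.5% ± 3.30 in Bbs4-/- and 30.2% ± 5.36 in Bbs6-/- (SD, n = 3 each). They held between 1.05 and 2.20 times the miR-21a counts in each of the 9 libraries. Members of the let-7 family differ by few bases, so their single counts are uncertain where a read fits several. let-7a-1 and let-7c-2, which are not in the sum, had identical counts, so a read may be listed under several entries. The family sum may then count a read repeatedly, and how far it does so was not tested.

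**Figure D2:**
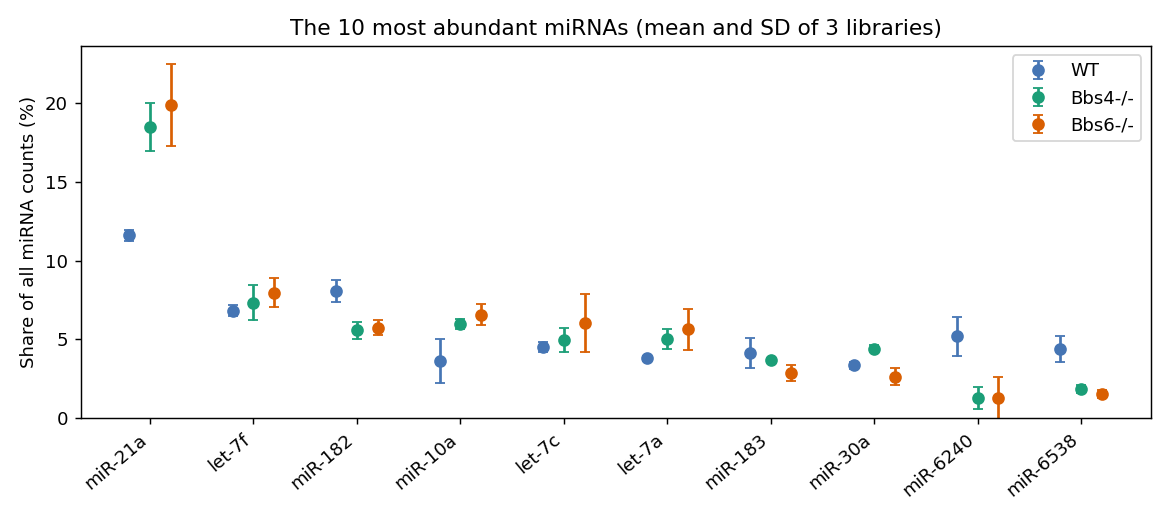
Share of all miRNA counts in percent for the 10 miRNAs with the highest mean share over the 9 libraries, as mean and SD of 3 libraries per genotype. miR-21a lies above all others in each genotype, and its mutant means of 18.5% and 19.9% are the highest points.

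How the miR-21a gain weighed in the composition was asked next. Summed over all miRNAs whose mean share was higher in the mutant, gains came to 18.3 percentage points in Bbs4-/- and 21.6 in Bbs6-/-. miR-21a alone gained 6.90 ± 0.913 (SE, n = 3 against 3) points in Bbs4-/- and 8.29 ± 1.53 (SE, n = 3 against 3) in Bbs6-/-, which were 37.7% and 38.4% of all gains. The next largest gain was that of miR-10a, with 2.35 points in Bbs4-/- and 2.94 in Bbs6-/-, so the miR-21a gain was 2.93 and 2.82 times as large. The let-7 seed family together gained 3.76 and 6.44 points. The largest losses were those of miR-6240, which fell by 3.90 and 3.91 points, miR-6538, which fell by 2.52 and 2.85 points, miR-182, which fell by 2.49 and 2.31 points, and miR-5126, which fell by 2.36 and 2.77 points. Since shares sum to a whole, a gain of miR-21a lowers the other shares, and losses of other miRNAs raise that of miR-21a. The miR-21a share alone lowers every other share by 7.82% in Bbs4-/- and 9.41% in Bbs6-/-. The mean share of miR-6240 was 5.17% ± 1.26 (SD, n = 3) in WT. It was 1.27% ± 0.708 in Bbs4-/- and 1.27% ± 1.33 in Bbs6-/- (SD, n = 3 each), so the mutant libraries differed widely among themselves. What part of either change came with the other was not tested.

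**Figure D3:**
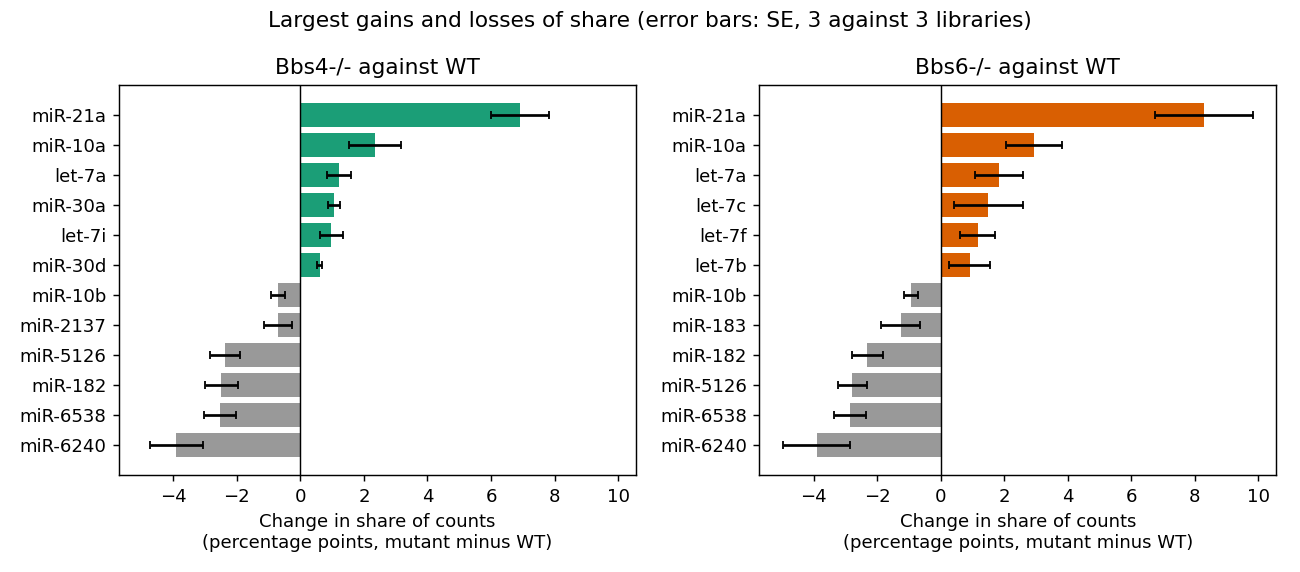
Change in the share of counts, in percentage points of mutant minus WT, for the 6 largest gains and the 6 largest losses of each comparison, with SE of 3 against 3 libraries. miR-21a gained 6.90 points in Bbs4-/- and 8.29 in Bbs6-/-, and no other miRNA gained more than 2.94.

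A ratio of 2 entries within a library needs no scaling, and it was used to see against which miRNAs miR-21a stood higher. Against miR-182, miR-21a had 1.5, 1.55 and 1.29 counts per count in WT, 2.79, 3.99 and 3.30 in Bbs4-/- and 4.11, 3.48 and 2.86 in Bbs6-/-. All 6 mutant libraries lay above all WT libraries in this ratio. Against miR-10a the ratio was 4.60, 2.32 and 3.54 in WT, 2.82, 3.59 and 2.92 in Bbs4-/- and 3.13, 3.12 and 2.82 in Bbs6-/-, and here the genotypes overlapped. The ratio of miR-21a to miR-10a thus did not separate the genotypes, and it spread most widely in WT.

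Against let-7a the ratio was 2.86, 3.17 and 3.18 in WT, 3.18, 4.73 and 3.42 in Bbs4-/- and 5.53, 2.97 and 2.80 in Bbs6-/-. The Bbs6-/- and WT ranges overlapped, with Bbs6-/- library 2, the library with the highest miR-21a share, far above libraries 3 and 4. Of the 9 miRNAs that follow miR-21a in abundance, the ratio was higher in every Bbs4-/- library than in every WT library for 8 (not miR-10a) and in every Bbs6-/- library for 6 (not miR-10a, let-7c or let-7a). Over the 112 miRNAs with at least 10 counts in each of the 9 libraries it was so for 79 (70.5%) in Bbs4-/- and 87 (77.7%) in Bbs6-/-, and the median ratio, as a fold of the WT mean, was 1.67 and 2.15.

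**Figure D4:**
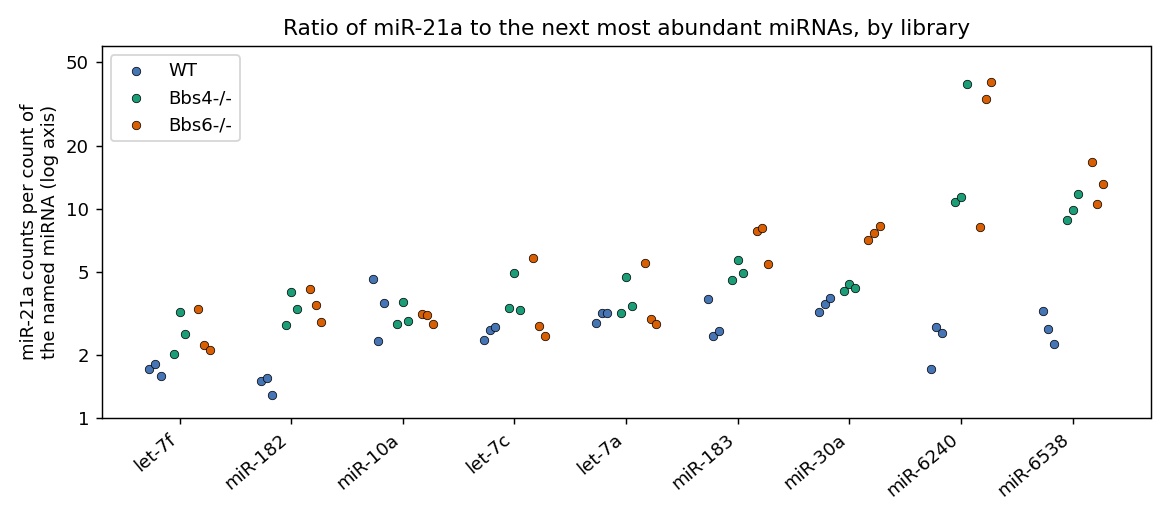
Counts of miR-21a per count of each of the 9 next most abundant miRNAs, on a log axis, with 1 point per library coloured by genotype. Mutant points lie above the WT points for let-7f, miR-182, miR-183, miR-30a, miR-6240 and miR-6538. They overlap the WT points for miR-10a in both mutants and for let-7c and let-7a in Bbs6-/-.

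To compare levels, libraries were scaled with TMM, the edgeR method that takes the trimmed mean of the log ratios of the miRNAs as the baseline, and values are CPM, the counts scaled to the effective library size. On this scale miR-21a stood at 88151, 113445 and 97011 CPM in WT. It stood at 191317, 192358 and 193928 CPM in Bbs4-/- and at 241663, 207400 and 217234 CPM in Bbs6-/-. No mutant library overlapped with WT, and the Bbs4-/- libraries agreed more closely with each other than their shares did.

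The mean log2 CPM of miR-21a was higher than in WT by 0.96 ± 0.11 (SE, n = 3 against 3) in Bbs4-/-, a fold of 1.94, and by 1.16 ± 0.12 (SE, n = 3 against 3) in Bbs6-/-, a fold of 2.24. Both folds lie under the limit, a log2 change of 2, that the study set for a differentially loaded miRNA, so miR-21a is not among the miRNAs called below in either mutant. As a background for the lack of overlap, 63 of 307 other miRNAs tested (20.5%) had all Bbs4-/- libraries above all WT libraries in TMM-scaled CPM, and 51 of 297 (17.2%) had all Bbs6-/- libraries above WT. By share of the total the numbers were 43 (14%) and 29 (9.76%).

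Each of 8 scalings (TMM, TMM without miR-21a, TMM without a filter, size factors of DESeq2, upper quartile, total counts, total counts without miR-21a, and the total over miRNAs with 10 or more counts per library) put all 6 mutant libraries above all 3 WT libraries in miR-21a. The order of the mutants was less firm. All Bbs6-/- libraries lay above all Bbs4-/- libraries under 5 of these scalings and overlapped with them under the 3 scalings by totals. The difference from WT ranged from 0.66 (upper quartile) to 0.96 (TMM) on the log2 scale in Bbs4-/- and from 0.77 (total counts) to 1.16 (TMM) in Bbs6-/-. Leaving out WT library 1, which has the lowest WT value, gave 0.76 in Bbs4-/-.

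Because miR-21a takes so large a share, its gain alone moves the CPM of all other miRNAs when libraries are scaled by their totals. The counts that were not miR-21a made up 88.4% ± 0.359 (SD, n = 3) of WT libraries, 81.5% ± 1.54 of Bbs4-/- libraries and 80.1% ± 2.63 of Bbs6-/- libraries (SD, n = 3 each). This shifts each other miRNA by -0.12 on the log2 scale in Bbs4-/- and by -0.14 in Bbs6-/-, or 7.82% and 9.41% lower CPM with no change in the miRNA itself. Over leave-one-out fits the shift ran from -0.13 to -0.10 in Bbs4-/- and from -0.16 to -0.12 in Bbs6-/-.

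With total counts, the median log2 fold change of the other miRNAs was -0.20 in Bbs4-/- over 307 miRNAs and -0.45 in Bbs6-/- over 297. With miR-21a left out of the totals it was -0.08 and -0.31, and with TMM -0.02 and -0.02. Removing miR-21a thus accounted for 63.3% of the difference between total-count and TMM scaling in Bbs4-/- and for 32.1% in Bbs6-/-. The mean shares of miR-10a and of the let-7 seed family were also larger in both mutants, and their part in the remainder was not tested. For let-7 the ranges overlapped, with 23.7% in Bbs4-/- library 2 and 24.0% in Bbs6-/- library 2 against 24.9% in WT library 1.

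**Figure D5:**
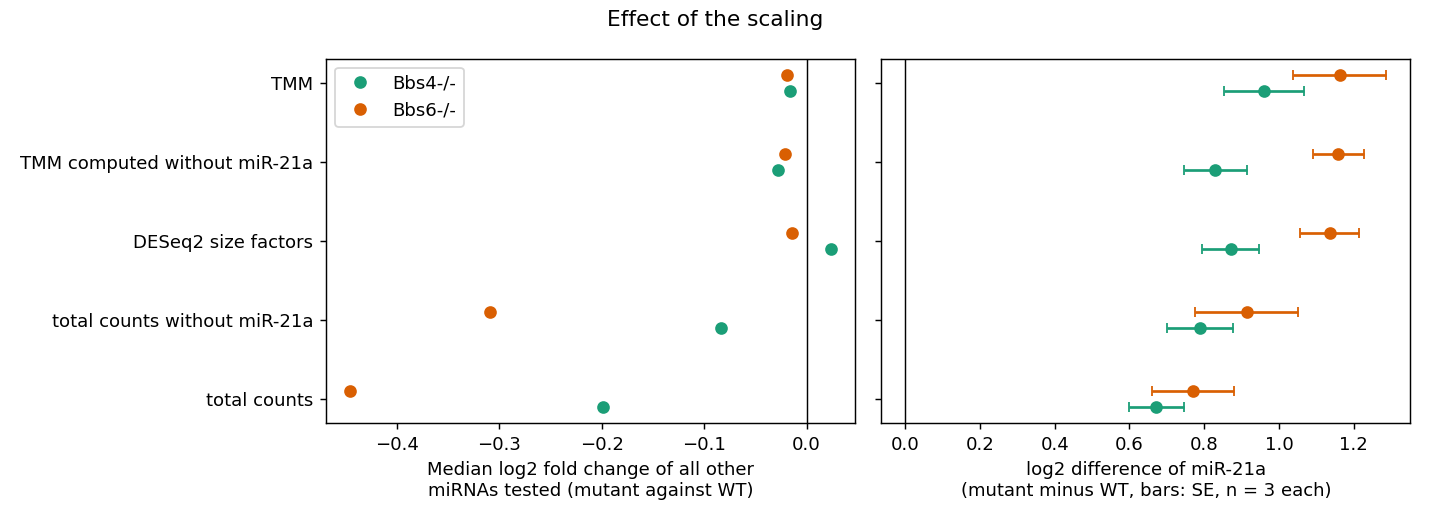
Left, median log2 fold change of all other miRNAs tested in each mutant against WT under 5 scalings, and right, the log2 difference of miR-21a under the same scalings with its SE (n = 3 each). With total counts the medians lie at -0.20 and -0.45, with miR-21a left out of the totals at -0.08 and -0.31, and with TMM at -0.02, while miR-21a is higher than WT under all 5.

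The effect on the calls was then counted, with miR-21a itself left out of every count. A call followed the thresholds of the study, a log2 fold change of 2 or more up or down with an adjusted p (Benjamini-Hochberg) under 0.1, in edgeR's quasi-likelihood test. In Bbs4-/- against WT, TMM gave 19 calls of 307 (6.19%), 12 higher and 7 lower. Total counts gave 23 (7.49%), 12 higher and 11 lower, and total counts without miR-21a gave 20 (6.51%), 12 higher and 8 lower. In Bbs6-/- against WT, TMM gave 12 calls of 297 (4.04%), 8 higher and 4 lower, against 17 (5.72%), 8 higher and 9 lower, with total counts and 15 (5.05%), 8 higher and 7 lower, with miR-21a left out of them. All 19 and all 12 calls made with TMM were also made with total counts. The scaling thus changed the number called lower and left the number called higher as it was. With a replicate block for the column numbers (all 9 libraries, TMM), Bbs6-/- gave 20 calls of 308, 10 higher and 10 lower, among them all 12 calls made without the block.

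The split moved further when the fold limit was dropped. At an adjusted p under 0.1 alone (edgeR, TMM), 46 miRNAs (15%) passed in Bbs4-/-, 26 higher (8.47%) and 20 lower (6.51%), and with total counts 50 (16.3%) passed, 21 higher and 29 lower. In Bbs6-/- 44 passed (14.8%), 28 higher (9.43%) and 16 lower (5.39%), and with total counts 37 (12.5%) passed, 10 higher and 27 lower. With miR-21a left out of the totals 47 (15.3%) passed in Bbs4-/-, 25 higher and 22 lower, and 36 (12.1%) in Bbs6-/-, 15 higher and 21 lower. These counts leaned on single libraries: 46 became 29 without Bbs4-/- library 1, and 44 became 13 without Bbs6-/- library 3, 13 without WT library 1, 21 without WT library 4, 29 without Bbs6-/- library 4 and 66 without Bbs6-/- library 2.

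The miRNAs whose call turned on miR-21a in the totals were few. In Bbs4-/- they were miR-6937, miR-224 and miR-6240, and in Bbs6-/- miR-361 and miR-6240, each called lower with miR-21a in the totals and not called without it. miR-224, with 241 counts in Bbs4-/- and 367 in WT, had a log2 fold change of -2.12 with total counts and of -1.9998, just short of the limit, without miR-21a. Its adjusted p, 0.000819 and 0.000938 (edgeR), passed in both. miR-6240, with 8680 counts in Bbs4-/- and 14810 in WT, went from -2.03 to -1.90, and in Bbs6-/-, with 9080 counts, from -2.03 to -1.85. miR-361 in Bbs6-/- went from -2.06 to -1.90.

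miR-6937 is of another kind, with 1 count in Bbs4-/- and 10 in WT, and its adjusted p moved from 0.0985 to 0.118 (edgeR). Between total counts and TMM the call also changed for miR-181c in Bbs4-/-, from a log2 fold change of -2.15 to -1.99, and in Bbs6-/- for miR-378a (-2.37 to -1.94), miR-101a and miR-101c (both -2.26 to -1.77). The last 2 entries have identical counts and are 1 measurement. Apart from miR-6937 and the miR-101 pair, these miRNAs passed the adjusted p with TMM as well and differed by the fold limit alone.

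The miRNAs next to miR-21a in abundance were tested in the same fits, in which a pass means an adjusted p under 0.1 (edgeR with TMM). miR-10a rose in Bbs4-/-, with a log2 fold change of 0.86 ± 0.28 (SE, adjusted p = 0.0623), and in Bbs6-/-, with 1.27 ± 0.26 (SE, adjusted p = 0.0199). It stood at 19147, 48872 and 27441 CPM in WT, 67776, 53618 and 66497 in Bbs4-/- and 77092, 66537 and 77010 in Bbs6-/-. The miR-10a groups did not overlap, but WT library 3 lay well above the other two, and without WT library 4 the test was not passed in either mutant. It was also not passed without Bbs4-/- library 1, or, in Bbs6-/-, without Bbs6-/- library 3 or WT library 1.

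miR-182, second to miR-21a in WT, had a log2 fold change of -0.35 ± 0.20 (SE, adjusted p = 0.304) in Bbs4-/- and -0.07 ± 0.18 (SE, adjusted p = 0.875) in Bbs6-/- with TMM in edgeR. With total counts these became -0.53 and -0.49, and both passed (adjusted p = 0.0251 and 0.0738, edgeR). With miR-21a left out of the totals the Bbs4-/- value still passed, at -0.42 (adjusted p = 0.0711, edgeR). Whether miR-182 fell is thus a matter of the scaling. miR-183, of the same cluster, had -0.01 and -0.11 with TMM and passed in neither.

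Of the let-7 members among the 10 most abundant, let-7a was higher in Bbs4-/- by 0.58 ± 0.20 (SE, adjusted p = 0.074, edgeR) and in Bbs6-/- by 1.01 ± 0.24 (SE, adjusted p = 0.0374, edgeR). let-7f was higher in Bbs6-/- by 0.66 ± 0.19 (SE, adjusted p = 0.0614, edgeR) and let-7c by 0.87 ± 0.28 (SE, adjusted p = 0.0848, edgeR), while in Bbs4-/- they had 0.29 and 0.31 and did not pass. With total counts none of the 3 passed in Bbs6-/-. let-7f and let-7c each passed in 1 of 6 leave-one-out fits in Bbs6-/-, the one without Bbs6-/- library 2. let-7a passed in 3 of 6 such fits in Bbs4-/- and in 2 of 6 in Bbs6-/-. With the replicate block let-7f and let-7c also passed in Bbs4-/-, at 0.57 and 0.67 (adjusted p = 0.0862 and 0.0284, edgeR). miR-30a, an epithelial miRNA of the kidney, was higher in Bbs4-/- by 0.57 ± 0.18 (SE, adjusted p = 0.0578, edgeR), and passed there in 4 of 6 leave-one-out fits, and in Bbs6-/- it had 0.05 with TMM and -0.35 with total counts.

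miR-6240 and miR-6538 are 2 entries annotated as mouse miRNAs, of no established function. Whether their reads came from miRNAs or from fragments of other RNAs was not tested. Among the 10 most abundant they were the entries that passed as lower in both mutants with TMM. miR-5126, further down at rank 14, fell as well, by 1.24 on the log2 scale in Bbs4-/- (adjusted p = 0.00224, edgeR) and by 1.51 in Bbs6-/- (adjusted p = 0.00248, edgeR). miR-6538 fell by 1.09 on the log2 scale in Bbs4-/- (SE 0.23, adjusted p = 0.00481, edgeR) and by 1.11 in Bbs6-/- (SE 0.23, adjusted p = 0.0199, edgeR), and it passed without any 1 of the 6 libraries in each comparison. miR-6240 fell by 1.83 in Bbs4-/- (SE 0.36, adjusted p = 0.00341, edgeR) and by 1.72 in Bbs6-/- (SE 0.56, adjusted p = 0.0848, edgeR). In WT it stood at 51655, 41499 and 38147 CPM in libraries 1, 3 and 4. In Bbs4-/- it stood at 17701 and 16904 CPM in libraries 1 and 2 and at 4903 CPM in library 3. In Bbs6-/- it stood at 29634 CPM in library 2 and at 6172 and 5364 CPM in libraries 3 and 4. The libraries numbered 3 or 4 thus lay lowest in each genotype. In Bbs6-/- the test was not passed in 3 of the 6 leave-one-out fits or in DESeq2 (adjusted p = 0.11).

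To find the miRNAs with a profile most like that of miR-21a, Pearson's r of log2 CPM was taken over the 9 libraries for the 112 miRNAs with at least 10 counts in each. The points share the genotype, the library and the scaling, so r is given as a description. The highest values were those of miR-93 (r = 0.941), miR-10a (0.932), miR-26b (0.904), miR-200b (0.903) and miR-30d (0.891). The median over the 112 was 0.181, and 65 lay above 0. miR-10a and miR-93 were also the highest with total counts, where miR-200b went from 0.903 to 0.382. With the genotype means taken out, r was 0.874 for miR-10a, 0.843 for miR-93 and 0.152 for miR-30d, so miR-30d followed miR-21a between genotypes more than within them. The lowest values were those of miR-5126 (-0.874), miR-351 (-0.868) and miR-6538 (-0.866). With the genotype means taken out they became 0.445, 0.693 and 0.270, so these miRNAs ran against miR-21a between genotypes and not within them.

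miR-93, of the miR-106b-25 cluster, lay at 6029 ± 378 CPM in WT, 7799 ± 261 in Bbs4-/- and 9867 ± 554 in Bbs6-/- (SD, n = 3 each), with no overlap between the genotypes. Its log2 fold change was 0.26 (adjusted p = 0.389, edgeR) in Bbs4-/- and 0.73 (adjusted p = 0.03, edgeR) in Bbs6-/-. With total counts it did not pass in Bbs6-/- either (0.32, adjusted p = 0.323, edgeR), and with TMM it passed there in 2 of 6 leave-one-out fits. The log2 fold changes of miR-93 were smaller than the miR-21a differences of 0.96 and 1.16, although with TMM its r with miR-21a was the highest.

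Other miRNAs with roles related to those of miR-21 were counted in 2 lists. miR-21 is known as a promoter of kidney fibrosis, and of 11 other miRNAs reported as promoting it, 6 could be tested and none passed in either mutant (edgeR, adjusted p under 0.1), where 15% and 14.8% of all miRNAs passed. At an unadjusted p under 0.05, for which no share over all miRNAs was taken, the numbers were 0 in Bbs4-/- and 1 in Bbs6-/-. The 1 was the p53-regulated miR-34a. In Bbs6-/- it passed in DESeq2 with a log2 fold change of 1.22 (adjusted p = 0.063) and with the replicate block (1.39, adjusted p = 0.0221, edgeR). miR-214, miR-377, miR-382 and miR-433 had no count in any library. The median log2 fold change of the 6 was -0.20 in Bbs4-/- and 0.33 in Bbs6-/-, against -0.02 and -0.02 for all miRNAs tested. The list's summed share was 0.225% to 0.234% in WT, 0.138% to 0.181% in Bbs4-/- and 0.193% to 0.236% in Bbs6-/-, so apart from miR-21a these miRNAs were scarce. miR-155, an inflammation-associated miRNA and the most abundant of them, stood at 1535 ± 187 CPM in WT, 1257 ± 329 in Bbs4-/- and 1564 ± 188 in Bbs6-/- (SD, n = 3 each).

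Of 17 miRNAs reported as opposing kidney fibrosis, all were tested. In Bbs4-/- 4 were higher (miR-30a, miR-30d, miR-200c and miR-141), 1 was lower (miR-101a) and 12 did not pass, with a median log2 fold change of 0.31, while 8.47% of all miRNAs tested were higher, 6.51% were lower and the median of all was -0.02. With the replicate block 7 were higher there, let-7b, let-7c and miR-26a in addition. In that fit more miRNAs passed in all, with 37 of 308 higher and 22 lower. In Bbs6-/- 7 were higher (miR-29a, miR-30d, miR-200c, miR-141, miR-26a, let-7b and let-7c), none was lower and 10 did not pass, with a median of 0.74, against 9.43% higher, 5.39% lower and a median of -0.02 for all miRNAs tested. With the replicate block 7 were higher and 1, miR-101a, was lower, where 36 of 308 miRNAs were higher and 22 lower. miR-101a was lower in Bbs6-/- at an unadjusted p under 0.05 in edgeR and passed in DESeq2, which had 8 higher and 1 lower. A share over all miRNAs was not taken for DESeq2. The 17 members took 15.2% to 16.5% of the counts in WT, 18.2% to 20.1% in Bbs4-/- and 15.0% to 20.1% in Bbs6-/-. With total counts miR-30d, miR-26a, let-7b and let-7c no longer passed in Bbs6-/-. miR-30d was higher in Bbs4-/- by 0.71 (adjusted p = 0.0177, edgeR), and it passed there in all 6 leave-one-out fits. In Bbs6-/- miR-30d and miR-26a passed in 2 of 6 such fits, and let-7b and let-7c in 1 of 6.

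Reads had been collapsed when both their sequence and the 8 random bases of their adapters were the same, and 8 bases give 65536 combinations. A single read sequence can thus be counted at most 65536 times, a limit that bears on miR-21a more than on any other entry. Its counts came to 0.111 to 0.229 of this number in WT and to 0.462 to 1.27 in the mutants. Bbs4-/- library 3 (1.27) and Bbs6-/- library 4 (1.16) exceeded it, so there the entry must hold more than 1 read sequence. If each entry were made of 2 equally frequent sequences, a correction for collisions would raise the miR-21a count by a factor of 1.03 to 1.06 in WT and of 1.14 to 1.59 in the mutants, with the deepest libraries raised most.

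Under that correction the miR-21a share became 11.5%, 12.4% and 11.9% in WT, 18.6%, 23.0% and 24.9% in Bbs4-/- and 26.1%, 22.9% and 23.3% in Bbs6-/-. The log2 difference from WT, after TMM, became 1.12 in Bbs4-/- and 1.5 in Bbs6-/-, and with 4 sequences per entry 0.94 and 1.30. The number of read sequences behind the entry cannot be read from the table, so the size of the loss is not known. The correction raises a larger count by a larger factor. That it moves the mutant shares up, away from WT, thus follows from its form and the higher miR-21a counts of the mutants.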

How the data were processed

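Small RNA of smEV pellets was sequenced in 9 libraries. As the methods state, the authors trimmed adapters (cutadapt 1.9), removed low-quality reads, collapsed reads with the same sequence and identifier, and counted reads per miRNA with miRDeep2, keeping the largest count where a miRNA had several entries. These counts, not normalized, are the deposited values. GRCm38 is named for a mapping to RNA classes, while for the miRDeep2 step the build, and the arm behind each entry, are not given in the sources used here. Bbs6-/- and WT columns carry other numbers than the labels and were used as replicates of their genotype. The study describes the pellets as independent preparations. The p-values measure the spread between them within 1 line per genotype. Libraries with the same column number deviated together from their genotype means: r over 112 miRNAs was 0.17 to 0.598 in all 6 such pairs. In the other 21 it was -0.583 to 0.432. Of these, the 7 pairs within numbers 1 and 2 or within numbers 3 and 4 were positive, and the 14 across these sets negative. The sets were unequal over the genotypes: numbers 1 and 2 held libraries 1 and 2 of Bbs4-/-, library 2 of Bbs6-/- and library 1 of WT. A fit with the column number as a replicate block (all 9 libraries, 3 residual degrees of freedom) was therefore added after seeing the data. It takes 1 spread trend for all miRNAs, so its single p-values may be too small.

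Tests used edgeR 4.0.16 in R 4.3.3 (TMM, quasi-likelihood) on the 6 libraries of a comparison and miRNAs with at least 6 counts in total. DESeq2 1.42.0, other scalings, filters and thresholds, collision corrections and leaving out each library were alternatives. SE of a log2 fold change is its size over the square root of F.

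miR-21a, the lists and the markers were chosen with earlier results of these data known. Named were miR-21a, entries with its seed, the 9 next most abundant miRNAs, the 5 most and 3 least like it in profile, up to 4 of the most abundant members of each list, and miRNAs whose call changed with the scaling. The result of 1 further list is not reported here. Other names, such as those of list members that passed and of the largest share changes, were added after their values were seen. Levels scaled to total or TMM are relative and cannot show an absolute amount.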

Additional observations from a re-analysis of the deposited data

How the results depend on the processing

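The calls with TMM stayed within 1.5 times the reported numbers under other scalings, filters, DESeq2 and an adjusted p under 0.05, while dropping the fold limit raised them to 46 in Bbs4-/- and 44 in Bbs6-/-. Leaving out 1 library gave 16 to 23 calls in Bbs4-/- and 8 to 18 in Bbs6-/- with TMM, and 17 to 23 and 12 to 25 with total counts. The log2 difference of miR-21a was 0.67 in Bbs4-/- and 0.77 in Bbs6-/- with total counts, 0.79 and 0.91 without miR-21a in the totals, and 0.80 and 0.92 with the total over miRNAs with 10 or more counts per library. In Bbs4-/- it was 0.66 with the upper quartile and 0.82 with TMM without a filter. The collision correction with 2 sequences gave 1.12 and 1.5. Leave-one-out gave 0.76 to 0.97 in Bbs4-/- and 1.08 to 1.22 in Bbs6-/-. The shift of the other miRNAs by the miR-21a share became -0.18 and -0.21 with 2 sequences per entry and, in Bbs4-/-, -0.14 with 4. It ran from -0.13 to -0.10 and from -0.16 to -0.12 over leave-one-out fits. The median of the other miRNAs moved from -0.20 to -0.016 with TMM, -0.028 with TMM without miR-21a and, with its sign turned, 0.024 with DESeq2's size factors in Bbs4-/-. In Bbs6-/- it moved from -0.45 to -0.31 without miR-21a in the totals, -0.019 with TMM, -0.021 with TMM without miR-21a and -0.014 with size factors. Leave-one-out gave -0.22 to -0.15 and -0.48 to -0.33.

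Of 38 values of other named miRNAs, 23 kept direction and side of the threshold with total counts, 27 without miR-21a in the totals and 35 with DESeq2. Signs turned, with no test passed on either side, in Bbs4-/- for miR-192 (-0.12 with total counts, -0.0046 without miR-21a), miR-92a (-0.041 with total counts) and miR-183 (0.043 with DESeq2), and in Bbs6-/- for miR-30a (-0.35 and -0.20), miR-155 (-0.36 and -0.21) and miR-92a (-0.15 and -0.000125), with total counts and without miR-21a. Their cause was not tested. With each library left out in turn, a check added after seeing the data, 3 of 6 named miRNAs that passed in Bbs4-/- passed in all 6 fits, and 1 of 11 in Bbs6-/-. With the replicate block the calls were 21 in Bbs4-/- (16 of the reported 19 among them) and 20 in Bbs6-/-, and the log2 difference of miR-21a was 0.92 and 1.1. Apart from the values given in the text, the block changed the side of the threshold for miR-351 in Bbs4-/-, which no longer passed.

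WT libraries were the shallowest, so scarce miRNAs are bounded less tightly there. Depth and genotype moved together, and the loss to shared identifiers grows with the miR-21a count.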
